A study of Canis lupus familiaris with 2 samples.

Results

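The angiopoietins, the angiopoietin-like proteins and the TIE receptors were described here through 7 genes: the ligand genes ANGPT1 and ANGPT2, the receptor genes TEK (which encodes TIE2) and TIE1, and the angiopoietin-like genes ANGPTL1, ANGPTL2 and ANGPTL4. They were chosen by name, as the genes of that list that hold a probe set with exactly 1 gene symbol in the array annotation. This gave 13 probe sets for 7 of the 15115 genes named on the array. Both subclones, J3T-1 and J3T-2, go back to the same canine glioma cell, and each is 1 clone. They were profiled with no treatment named in the labels, from cultures in serum-supplemented DMEM, on 1 single-colour Affymetrix canine array per subclone. The submitters describe the pair as alike in genetic background and unlike in invasion and angiogenesis, which is the question that the comparison addresses for this ligand and receptor family. Every value below is therefore 1 measurement, with no replicate, no replicate error and no test between the subclones.

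Angiopoietins are secreted glycoproteins that bind the endothelial receptor tyrosine kinase TIE2 through a fibrinogen-like domain. ANGPT1, made mainly by mural and other non-endothelial cells, activates TIE2 and stabilises vessels, whereas ANGPT2, made mainly by endothelium, competes with it and loosens vessels where it does not itself activate the receptor. TIE1 has no established angiopoietin ligand and acts beside TIE2. The angiopoietin-like proteins share the coiled-coil and fibrinogen-like architecture but do not bind TIE2, and act through integrins, immune receptors or the inhibition of lipases. Gliomas are known to supply angiopoietins to the vessels that they grow along.

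Of the 7 genes, ANGPT1 was 7.93-fold higher in J3T-2, ANGPTL2 was 2.22-fold higher in J3T-1 and ANGPTL4 was higher in J3T-2 by at least 2.17-fold. ANGPT2 was at the edge of detection, and TEK, TIE1 and ANGPTL1 were not above background in either subclone. Background here is a floor at the median signal of each array, 19.0 for J3T-1 and 22.0 for J3T-2. A signal under the floor was set to it, a fold against such a signal is a lower bound ("at least"), and no fold is given where both arrays were at the floor. A gene counted as measured when its brightest probe set exceeded the floor in J3T-1, J3T-2 or both, as 4 of the 7 genes and 9468 genes in all did. Of the 13 probe sets, 3 were above the floor on both arrays, 3 on 1 array and 7 on neither.

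Genes were counted by size, as 2-fold or more apart. Towards J3T-2, 2 of the 4 measured genes reached that size, against 7.37% of all measured genes. Towards J3T-1 it was 1 of 4, against 3.5% of all measured genes. The median log2 ratio of J3T-2 over J3T-1 was 0.67 over the 4 genes. That value lies between the lower bounds of ANGPT2 (0.22) and ANGPTL4 (1.12), so it depends on the floor. Over all measured genes the median was 0.168. Folds of single genes hold that general shift. With ratios centred on it, 1 of the 4 genes (ANGPT1) counted as higher in J3T-2 and 1 (ANGPTL2) as higher in J3T-1, and the share of all calls that pointed to J3T-2 went from 67.8% to 52.0%. With so few genes a single gene decides each count, and nothing particular to the family is read from them.

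**Figure D1:**
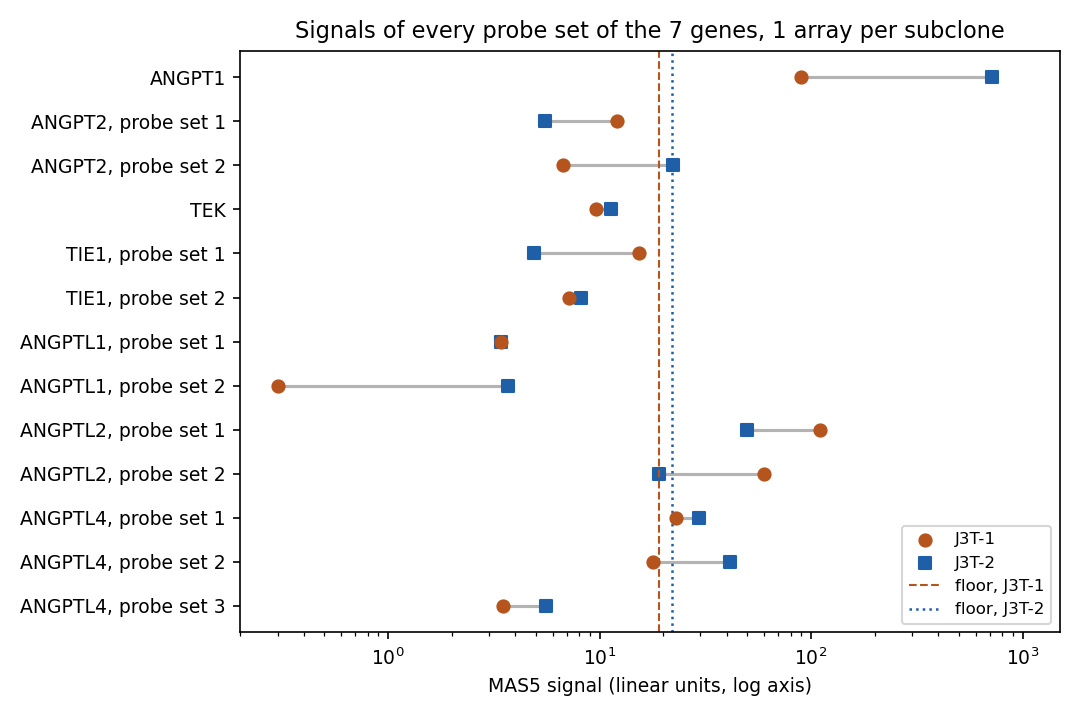
MAS5 signal (linear units on a log axis) of each of the 13 probe sets of the 7 genes, with circles for the J3T-1 array, squares for the J3T-2 array and vertical lines at the floors of 19.0 and 22.0. Probe sets of a gene are ordered by their J3T-1 signal, ANGPT1 stands far to the right in J3T-2 (713.9), and the probe sets of TEK, TIE1 and ANGPTL1 lie left of both floors.

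ANGPT1, the TIE2 agonist, gave 90.0 on the J3T-1 array and 713.9 on the J3T-2 array (MAS5 signal). Both signals lay well above their floors, so ANGPT1 was measured in both subclones and the fold is no bound. Its log2 ratio was 2.99, or 2.82 with the shift of all genes taken off. Among the 9468 measured genes it ranked 40th towards J3T-2, so that 0.412% of genes had a larger ratio in that direction. The only error estimate at hand is the spread between probe sets of the same gene, an SD of 0.181 in log2 for genes as bright as ANGPT1 (a mean signal over 200, 1839 genes). That spread is technical and holds no variation between cultures. ANGPT1 has a single probe set, so no other probe set of the gene repeats the difference. Its name ends in _s_at, a suffix that marks a probe set that may match more than a single transcript. In RNA from a whole culture, fewer cells that express a gene and less RNA per cell cannot be told apart.

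ANGPT2, the context-dependent TIE2 antagonist, was near or under the floor. By its 1 probe set above a floor it gave 6.7 in J3T-1 against 22.2 in J3T-2, the latter only just over the floor of 22.0, for a bound of at least 1.17-fold towards J3T-2. By its other probe set the signals were 12.1 and 5.5, under both floors. With the floor lowered to the 25th percentile of each array (4.4 and 5.0), the former probe set was 3.31-fold higher in J3T-2 and the latter 2.2-fold higher in J3T-1, so the probe sets of ANGPT2 gave no shared direction. ANGPT4, a further TIE2 ligand that is not among the 7 genes and was looked up after their values were seen, had signals of 11.0 and 16.5, under both floors.

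The receptors were not detected above the floor. TEK, which encodes the angiopoietin receptor TIE2, had signals of 9.6 (J3T-1) and 11.3 (J3T-2). TIE1, its co-receptor, had signals of 15.4 and 4.9 by its first probe set and of 7.2 and 8.2 by its second. All 3 receptor probe sets lay under the floor on both arrays, where values have no order. A signal under the floor sets only an upper limit and does not show that the transcript was absent. With the lower floor, the first TIE1 probe set would count as at least 3.08-fold towards J3T-1, with the second at 1.14-fold and TEK at 1.18-fold towards J3T-2.

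ANGPTL2, a secreted pro-inflammatory and pro-angiogenic factor known to bind integrin alpha5 beta1, ran the other way from ANGPT1. Its brighter probe set gave 110.4 in J3T-1 against 49.8 in J3T-2. Its dimmer probe set had signals of 59.9 and 19.0, the second under the floor, for a bound of at least 2.72-fold. Both probe sets were higher in J3T-1, and ANGPTL2 was the only one of the 7 genes for which more than 1 probe set passed the 2-fold rule. The log2 ratios were -1.15 and -1.45, or -1.32 and -1.61 relative to all genes. The SD between probe sets of the same gene was 0.284 for genes with mean signals from 50 to 200 and 0.373 under 50. Those SDs are from genes with more than 1 probe set above both floors. ANGPTL2, whose dimmer probe set is a bound, is not among them. By its ratio ANGPTL2 ranked 264th towards J3T-1, with 2.78% of measured genes farther that way. The call was lost with no floor and a pseudocount of 16, where the brighter probe set had a log2 ratio of -0.94, and with the floor at the 75th percentile, where no fold could be given.

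ANGPTL4, an inhibitor of lipoprotein lipase induced by PPAR ligands, fasting and hypoxia, was dim in both subclones. Its probe set with the largest difference gave 17.8 in J3T-1, under the floor, against 41.2 in J3T-2. This probe set also carries the _s_at suffix. Its second probe set had signals of 22.9 and 29.4, a 1.28-fold difference towards J3T-2. The remaining probe set had 3.5 and 5.6, under both floors. Both probe sets above a floor were thus higher in J3T-2, but only 1 passed the 2-fold rule, and its log2 ratio of 1.12 became 0.95 relative to all genes, a bound of 1.93-fold. For genes with a mean signal under 50, the SD between probe sets above both floors was 0.373 in log2, which leaves out bounds such as this. The 2-fold count for ANGPTL4 therefore holds only for the uncentred values of that probe set.

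ANGPTL1, a secreted inhibitor of angiogenesis, was at the floor in both subclones. The signals were 3.4 and 3.4 by its first probe set and 0.3 and 3.7 by its second, all far under the floors and under the 25th percentile of their arrays. The other angiopoietin-like genes with a probe set were at the floor as well. ANGPTL5 had signals of 7.5 and 3.8, ANGPTL6 of 17.0 and 22.0, and ANGPTL7 of 1.1 and 1.5. ANGPTL8 was not analysed here.

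**Figure D2:**
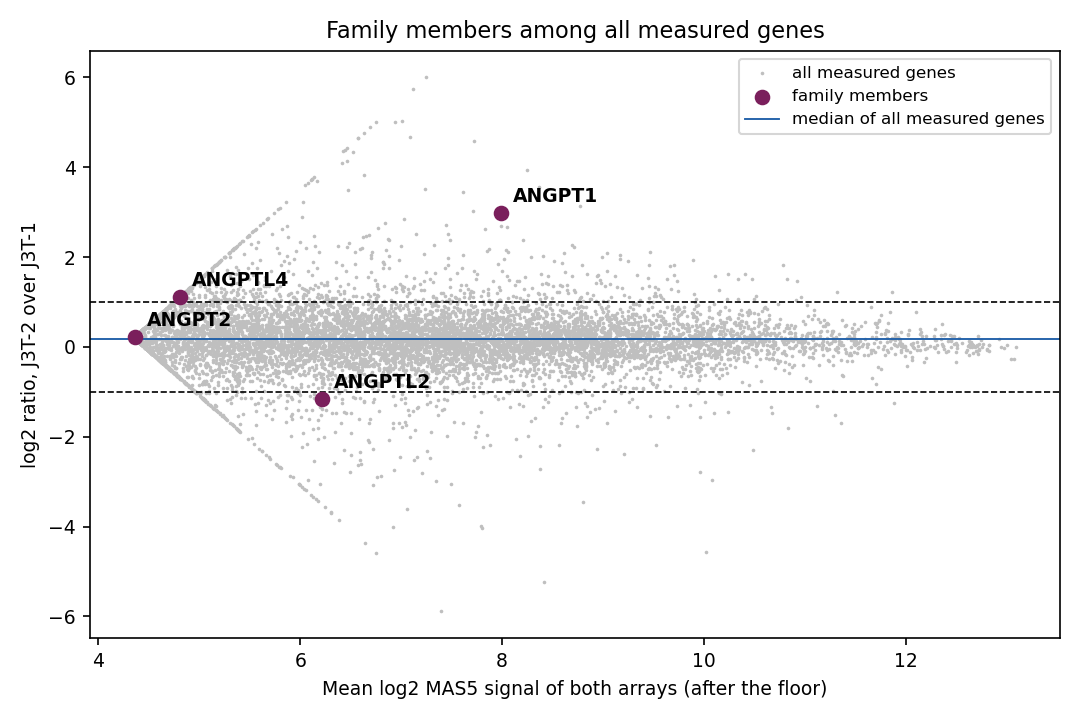
Log2 ratio of J3T-2 over J3T-1 against mean log2 MAS5 signal for the 9468 measured genes (grey, 1 point per gene), with the 4 measured members marked, dashed lines at 2-fold and a solid line at the median of all genes (0.168). ANGPT1 lies far above the upper line at 2.99 and ANGPTL2 just beyond the lower line at -1.15. ANGPTL4 (1.12) and ANGPT2 (0.22), both lower bounds, lie at the dim left edge.

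Surface partners of the TIE receptors and of the ligands went both ways. The list held the phosphatase gene PTPRB, integrin subunits, the tetraspanin genes CD9 and CD151, and the matrix protein genes SVEP1 and TGFBI. Of 11 genes 10 were measured, 3 of which passed 2-fold towards J3T-2 and 2 towards J3T-1, with a median log2 ratio of -0.42. Over all measured genes, the shares past 2-fold were 7.37% towards J3T-2 and 3.5% towards J3T-1. The counts became 2 towards J3T-2 and 3 towards J3T-1 with centring, quantile normalization or loess. ITGA5, the alpha5 subunit of the fibronectin receptor that also binds ANGPT1 and ANGPTL2, had signals of 570.4 and 138.7 (4.11-fold higher in J3T-1, and 2.31-fold by its other probe set). Its beta1 partner ITGB1 had 3335.8 and 2127.8, within 2-fold. The collagen receptor subunit ITGA2 was 6.55-fold higher in J3T-1 (851.6 and 130.1). ITGB3, which pairs with the alphaV subunit, was 6.52-fold higher in J3T-2 (68.4 and 445.9), while ITGAV itself had 657.6 and 565.7. The integrin-binding matrix protein gene TGFBI had 12.6 and 230.7 (at least 12.1-fold towards J3T-2). SVEP1, which encodes a matrix protein known as a ligand of TIE1, was 2.13-fold higher in J3T-2 (55.2 and 117.3), and its other probe sets gave 2.17-fold and a bound of 1.55-fold. The receptor-type phosphatase gene PTPRB, whose product dephosphorylates TIE2, had signals from 0.4 to 5.4 over 2 probe sets and both arrays, under both floors.

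Intracellular carriers of the TIE2 signal were mostly within 2-fold, as most measured genes were. Of 27 adaptors and effectors 22 had a probe set and 18 were measured, with a median log2 ratio of 0.4. Towards J3T-2, 2 of the 18 passed 2-fold, against 7.37% of all measured genes. Towards J3T-1 it was 0, against 3.5%. These counts are close to the shares of all genes. FOXO3, a forkhead factor that AKT restrains, had signals of 45.0 and 160.6 (3.57-fold higher in J3T-2). TNIP2, which binds TIE2 and dampens NF-kappaB, had 1.8 and 39.3 (at least 2.07-fold towards J3T-2). FOXO1, the forkhead factor that drives ANGPT2 in endothelium, had 25.5 and 45.9, within 2-fold. AKT1 (107.5 and 138.5), the kinase subunit PIK3CA (110.5 and 168.8) and the phosphatase PTPN11 (142.8 and 148.8) were also within 2-fold. DOK2, GRB7, NOS3 and BMX were at the floor on both arrays.

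Of the transcription factors known to act on angiopoietin genes, none was past 2-fold at the reported floor. Of 13 genes 11 had a probe set and 8 were measured, 0 of them past 2-fold in either direction, with a median log2 ratio of 0.33. Over all measured genes, 7.37% passed 2-fold towards J3T-2 and 3.5% towards J3T-1. A count of 0 among 8 genes is close to those shares and is not particular to these factors. ETS2 (24.2 and 5.4) was under the floor in J3T-2, so its 1.1-fold towards J3T-1 is only a bound. With the floor at the 25th percentile, 1 of 10 measured factors passed 2-fold in each direction. The hypoxia factor HIF1A had signals of 1924.4 (J3T-1) and 1504.0 (J3T-2), and EPAS1 (HIF-2alpha) had 78.7 and 123.4. HIF1A was thus slightly higher in J3T-1 and EPAS1 slightly higher in J3T-2, both within 2-fold. The endothelial regulators GATA2, GATA3 and FOXC2 were at the floor on both arrays.

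Around ANGPTL4, the nuclear receptors and their targets gave no single direction. Of 13 regulators 6 were measured, 1 of which passed 2-fold towards J3T-2 and 0 towards J3T-1. That gene was the coactivator NCOA1, with signals of 45.1 and 121.0 (2.68-fold), and its other 4 probe sets above a floor pointed the same way. PPARD, the receptor that drives ANGPTL4 in many tissues, had 35.3 and 63.6, within 2-fold, and PPARA and PPARG were at the floor. Of 22 PPAR target genes 15 were measured, with 2 past 2-fold in each direction and a median log2 ratio of 0.27. For both lists, the shares of all measured genes past 2-fold were 7.37% towards J3T-2 and 3.5% towards J3T-1. The lipid droplet coat gene PLIN2 had signals of 680.1 and 1360.6 (2.0-fold higher in J3T-2, where its other probe sets ranged from 1.89-fold to 2.05-fold). Catalase, CAT, was 2.28-fold higher in J3T-2 (265.9 and 606.7). The fatty acid binding protein genes ran opposite, with FABP3 at least 8.3-fold (182.6 and 6.4) and FABP5 5.5-fold (298.9 and 54.3) higher in J3T-1.

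In the lipase axis on which ANGPTL4 acts, LPL itself was at the floor. Of 18 genes 17 had a probe set and 11 were measured, 2 of which passed 2-fold towards J3T-2 and 1 towards J3T-1, with a median log2 ratio of 0.28. The shares over all measured genes were 7.37% and 3.5%. LPL, the lipoprotein lipase that ANGPTL4 inhibits, had signals of 0.5 and 1.8, under both floors. LMF2, of the lipase maturation factor family, was 2.44-fold higher in J3T-2 (31.1 and 75.8). PCSK5, a proprotein convertase, had 0.8 and 46.8 (at least 2.46-fold towards J3T-2) by 1 of its 6 probe sets, the other 5 being at the floor on both arrays. The endocytic receptor LRP1 had 51.1 and 15.1 (at least 2.32-fold towards J3T-1) by its brightest probe set. Another of its probe sets gave a bound of 1.65-fold the same way (36.2 and 20.2), and the rest were at the floor on both arrays. With the median over probe sets, 0 genes of this list passed 2-fold towards J3T-1. FURIN, the convertase that can cleave ANGPTL4, had 25.9 and 28.9. Of the other fibrinogen-domain proteins, 2 of 10 with a probe set were measured. Tenascin C, TNC, a glioma matrix protein, was 2.37-fold higher in J3T-1 (131.5 and 55.6), and FGL2 was within 2-fold.

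**Figure D3:**
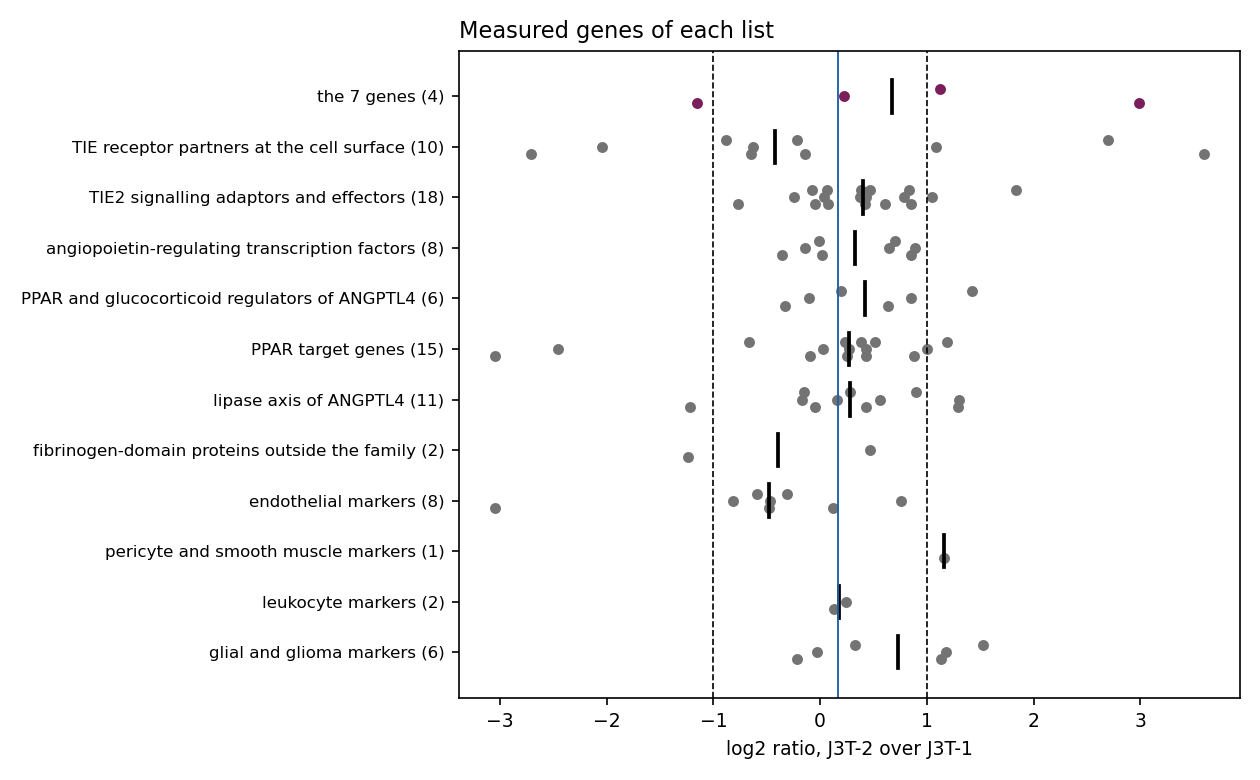
Log2 ratio of J3T-2 over J3T-1 for each measured gene (points) of the 7 genes and of 11 lists, with the number measured in brackets, a black bar at each median, dashed lines at 2-fold and a solid line at the median of all genes. The members span -1.15 to 2.99, the transcription factors lie between the dashed lines at the reported floor, and the surface partners extend beyond both.

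The cells' identity was checked on markers. Of the endothelial markers, PECAM1, KDR, CLDN5, ESAM and TAL1 were at the floor on both arrays, with KDR at 2.0 and 2.6. Above a floor were 8 of 13, with 1, the VEGF receptor gene FLT1, 8.3-fold higher in J3T-1 (211.6 and 25.5) and 0 past 2-fold towards J3T-2. The other FLT1 probe sets gave 8.26-fold (187.4 and 22.7) and 3.13-fold (74.9 and 23.9). In J3T-2 every FLT1 signal was close to the floor of 22.0. The endothelial probe sets summed to 810 (J3T-1) and 411 (J3T-2) in signal. FLT1 alone accounted for 474 and 72.1 of these sums, and the other 26 probe sets summed to 336 and 339. These sums include EGFL7 and probe sets under the floor, so they do not show that the other markers were alike. EGFL7 ran towards J3T-2 (44.0 and 74.7, and 26.7 and 68.7 by its other probe set), and VWF was near both floors (21.0 and 22.8). CD34 (43.4 and 24.5) and CDH5 (36.8 and 26.5) were higher in J3T-1, within 2-fold. ERG, EMCN and ROBO4 gave bounds of 1.4-fold, 1.24-fold and 1.51-fold towards J3T-1. The median log2 ratio of the list was -0.48. Its count towards J3T-1 was 2 with quantile normalization or loess, and its count towards J3T-2 was 1 with the median over probe sets. Of 8 pericyte and smooth muscle markers 1 was measured, MCAM, with 14.6 and 42.6 (at least 2.24-fold towards J3T-2). The other MCAM probe sets above a floor gave 1.25-fold and a bound of 1.23-fold, while PDGFRB, RGS5 and CSPG4 were at the floor. This list summed to 127 and 178. Of 7 leukocyte markers 2 were measured, CD68 and CD3E, both close to the floor, and the list summed to 72.5 and 101. CD68 was within 2-fold (19.5 and 23.0), and no fold could be given for CD3E (20.1 and 16.3). Of 8 glial and glioma markers 6 were measured. SOX2 was 2.9-fold (411.1 and 1191.0), PDGFRA 2.26-fold (43.7 and 98.9) and SOX9 2.18-fold (51.8 and 113.1) higher in J3T-2, a count of 3 that was 2 with centring and 1 with quantile normalization or loess. NES (55.3 and 69.3), CD44 (1206.7 and 1035.4) and VIM (8129.9 and 7960.8) were within 2-fold. The astrocyte genes GFAP and S100B were at the floor on both arrays. For every marker count above, the shares of all measured genes past 2-fold were 7.37% towards J3T-2 and 3.5% towards J3T-1. No marker probe set named here was listed at exactly 0.

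**Figure D4:**
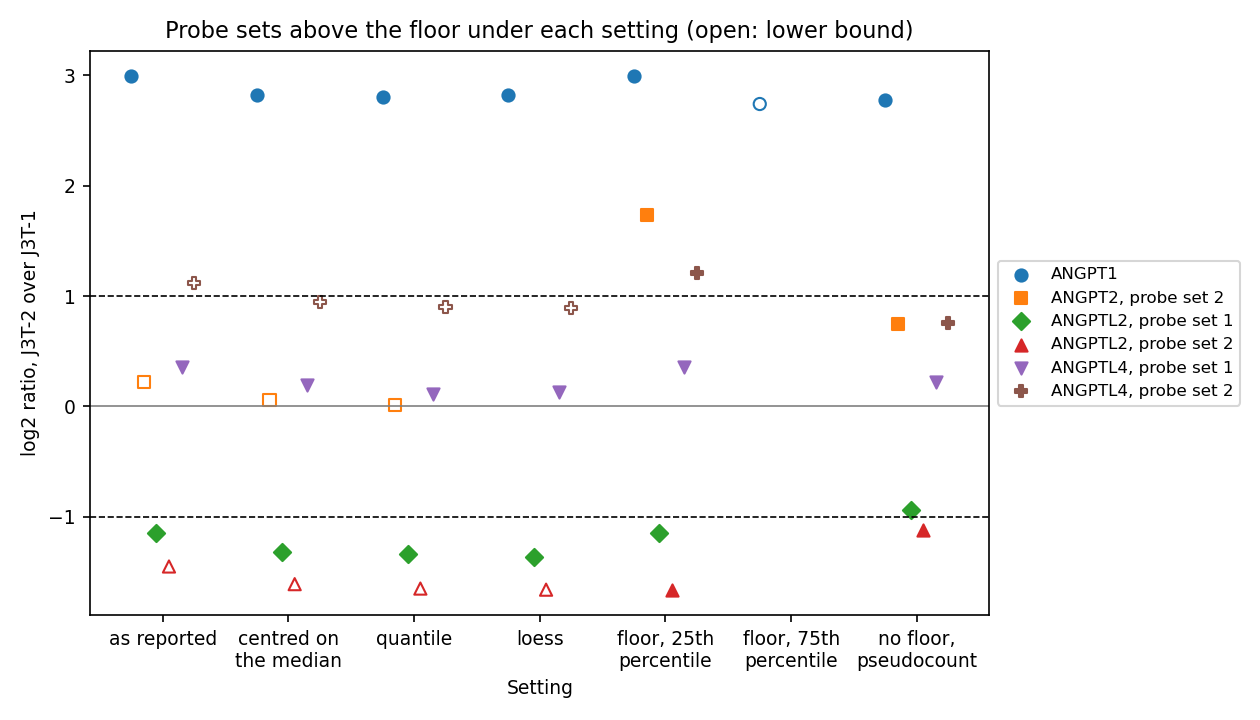
Log2 ratio of J3T-2 over J3T-1 for the 6 member probe sets above a floor (colours and markers) as reported and under 6 other settings of scaling and floor, with open markers for lower bounds and dashed lines at 2-fold. ANGPT1 stays between 2.74 and 2.99, both ANGPTL2 probe sets stay below 0 wherever they have a value, and ANGPT2 moves most, from 0.01 to 1.73.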

How the data were processed

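Per the labels' protocols, an RNeasy kit gave the total RNA, and a 3' IVT kit turned it into biotinylated cRNA. For each probe set the authors deposited 1 linear signal intensity per array, and the submitters' processing notes name MAS5. The sources used here do not give its version or scaling target, and MAS5 leaves dim values noisy. There were 43035 probe sets, including 111 controls. Of the other 42924, 29254 had 1 gene symbol, 439 several and 13231 none. Where a gene had several probe sets, the one of highest mean log2 signal after the floor stood for it. Genes were counted by a fold of at least 2, since 1 array per subclone allows no test, and the number of arrays limits the precision.

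The members and the 12 lists were chosen with earlier results of these data known. Named were every member with every probe set, the angiopoietin-like genes of a list and, per list, up to 4 genes at least 2-fold apart. The other genes named were picked after their values were seen. A likeness of pattern to other genes was not computed, since 2 arrays give each gene a single difference. Neighbouring genes were taken from the assembly UU_Cfam_GSD_1.0, where 15114 of 15115 symbols matched, and no coordinate of it is given because no build is named for the array values. Values were recomputed under 8 other settings: 3 scalings, a lower and a higher floor (25th and 75th percentiles), a pseudocount of 16 in place of the floor, the median over probe sets, and leaving out _x_at and _s_at probe sets. The tools were statsmodels 0.14.6 for loess, pandas 2.3.3 and numpy 2.4.6 under Python 3.11.15, and matplotlib 3.10.9 for figures. The 2-fold count was checked on simulated data, with differences above 2-fold planted in brighter genes above the floor on both arrays. That check does not cover how well differences close to 2-fold, or those of dim genes such as ANGPTL4, are recovered.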

Additional observations from a re-analysis of the deposited data

How the results depend on the processing

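The count of members past 2-fold towards J3T-2 was 2 as reported. It was 1 (ANGPT1) with centring, quantile normalization, loess, the floor at the 75th percentile, no floor and the median over probe sets. It was 3 with the floor at the 25th percentile, where ANGPT2 joined, and 0 without _x_at and _s_at probe sets, where ANGPT1 has no probe set left. The count higher in J3T-1 was 1 as reported, 2 with the floor at the 25th percentile, where TIE1 joined, and 0 with no floor or with that at the 75th percentile. The median log2 ratio of the measured members, 0.67 as reported, was 1.44 with the 75th-percentile floor (2 genes, with ANGPTL2, which has no fold there, entered as the J3T-2 floor over its J3T-1 signal), 0.09 over 7 genes with no floor and -0.39 over 2 genes without _x_at and _s_at probe sets, a reversal in a setting that drops ANGPT1 and ANGPT2 and takes the 0.36 probe set of ANGPTL4. Of 30 values of single member probe sets under other settings, 26 moved by less than 0.261, the SD between probe sets pooled over all genes. The other 4 moved by more (2 for ANGPT2, 1 for ANGPTL2 and 1 for ANGPTL4). None of the 30 values turned direction, but a bound that pointed away from the array above the floor was given no value. Such cases are outside the 30, so the values do not show that every direction held. Over all genes the counts of 698 and 331 became 444 and 471 with quantile normalization (48.5% of calls towards J3T-2), 445 and 468 with loess (48.7%), 1549 and 892 with the lower floor, and 266 and 121 with the higher floor. Among the list genes, MCAM, PLIN2, SOX9, SVEP1 and TNIP2 came under 2-fold with centring and ITGB5 came over it, at -1.04. No paired analysis was possible because each subclone has 1 array. Signal close to the floor limits what can be said of ANGPT2, ANGPTL4, TEK, TIE1 and ANGPTL1.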

Other observations

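The genes that neighbour ANGPT1 in the dog genome did not share its difference. Of the 10 nearest measured genes, 5 on each side, 0 were at least 2-fold apart, and their log2 ratios of J3T-2 over J3T-1 had a median of -0.31 and ranged from -0.85 (TRHR) to 0.67 (OXR1). Over all measured genes, 7.37% passed 2-fold towards J3T-2 and 3.5% towards J3T-1. Counts among so few neighbours, here and below, are therefore not read as particular to a neighbourhood. The next measured genes on either side were OXR1, which encodes an oxidation resistance protein, and EIF3E, a translation initiation factor subunit with signals of 2700.5 and 2166.4. Around ANGPTL2, which was lower in J3T-2, the 10 neighbours had a median of 0.56 and ranged from -0.09 to 1.26, with the sugar transporter gene SLC2A8 past 2-fold towards J3T-2 (124.1 and 297.9). Around ANGPTL4 the median was 0.23, with 0 at least 2-fold apart. Near ANGPT2, where only 7 measured genes were placed, 2 passed 2-fold towards J3T-2, and these included the neuronal glycoprotein gene GPM6A (43.1 and 1029.0). These are descriptions of 2 arrays, and no cause of any difference was tested.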
